A study of Mus musculus with 88 samples.

Results

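The macrophage and myeloid cell genes were a module of 38 genes that includes surface antigens, Fc receptors, subunits of the phagocyte oxidase and signalling and cytoskeletal proteins of leukocytes. Members were the named genes for which the array annotation gave a probe set with 1 symbol alone, and where a gene had several such probe sets the one with the highest mean signal stood for it. Of the 38 genes, 36 were found in this way among 8252 genes on the array, while Lyn, a Src family kinase, and Plek, a platelet and leukocyte protein kinase C substrate, had no such probe set here. RNA from whole mouse hearts was measured on Affymetrix arrays, with 1 mouse per array and 88 arrays in all. The dKO mice had lost both SR-BI (SR-BI-/-), the high-density lipoprotein receptor encoded by Scarb1, and apolipoprotein E (apoE-/-), and the HET controls kept 1 Scarb1 allele and also lacked apolipoprotein E (SR-BI+/- apoE-/-). There were 10, 10 and 12 dKO hearts on chow that were 21, 31 and 43 days old, 9, 10 and 9 HET hearts on chow, 6, 8 and 6 dKO hearts on probucol, a lipid-lowering antioxidant drug, and 3, 3 and 2 HET hearts on probucol. The design text describes dKO mice on chow as free of detectable coronary disease at 21 days, with small infarcts and heart failure at 31 days and extensive infarcts at 43 days.

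Macrophages are phagocytes that clear dead cells and debris, carry many lysosomes, and sense antibody-coated particles through Fc receptors that signal over shared adaptor chains. A healthy heart holds a resident population, and monocytes from the blood enter cardiac muscle after an infarct and become macrophages there. The transcription factor PU.1, encoded by Spi1, and the receptor for colony stimulating factor, encoded by Csf1r, are needed for the lineage, and several of the genes described here (Ptprc, Cd53, Cd37, Cd48, Cd52, Coro1a, Vav1 and Lcp2 among them) are also used by lymphocytes or other leukocytes.

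Levels are given as log2 of the signal, raised to a floor of 4.22 units, minus the log2 of the array's median signal, and differences are on the same log2 scale. The median signal of an array lay between 27.8 and 75.4. Scarb1 had log2 levels of 0.78 to 1.52 (median 1.03) in dKO hearts on chow at 43 days, against 1.52 to 2.43 (median 2.14) in HET hearts, the highest dKO heart lying just under the lowest HET heart. Apoe, which both genotypes lack, had group mean log2 levels of -2.54 to -1.66 over the 12 groups. The arrays fell into sets of 20 and 68 along the second component of the residuals, and the smaller set was unevenly filled on chow. At 21 days it took in 6 of 10 dKO and 2 of 9 HET arrays, at 31 days 0 of 10 and 6 of 10, and at 43 days 0 of 12 and 3 of 9. A further 3 arrays, HET chow replicate 2 at 21 days, replicate 7 at 31 days and replicate 9 at 43 days, stood apart on the first component. Without them 8, 26 and 32 members were higher in dKO hearts at the successive ages, against 9, 26 and 31 with them. All 13 cardiomyocyte markers were above the floor on every array.

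In dKO hearts on chow some members were higher than in HET hearts at 21 days, and most were at 31 and 43 days. The median difference was larger at each later age. By limma's test with Benjamini-Hochberg adjustment over all 8252 genes at a threshold of 0.05, 9 of the 36 members were higher in dKO hearts at 21 days, against 2.38% of all genes. At 31 days 26 members were higher, against 6.69% of all genes, and at 43 days 31 were, against 15.3%. None was lower at any of these ages, where 0.8%, 16.3% and 26% of all genes were lower and where an unadjusted p under 0.05 would have called 2, 0 and 0 members lower. The median log2 difference over the 36 members was 0.24, 1.13 and 1.90 at the successive ages, against 0.06, -0.13 and -0.16 over all genes. At 21 days 25 of the 36 differences were above 0 and 11 below 0. On the signals as deposited, not centred on the array median, the members' median at that age was 0.02, against -0.16 over all genes. Since whole hearts were measured, more myeloid cells and more RNA of these genes per cell cannot be told apart.

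The same pattern stood in single hearts. The median of the 36 members, each taken relative to its mean in HET hearts on chow of the same age, was -0.11 to 0.61 (median 0.38) in log2 units in the dKO hearts on chow at 21 days, 0.60 to 1.60 (median 1.22) at 31 days and 1.52 to 2.28 (median 1.99) at 43 days. In HET hearts on chow it was -0.09 to 0.24 (median 0.08), -0.40 to 0.33 (median 0.01) and -0.26 to 0.31 (median 0.06) at those ages. The dKO and HET hearts thus overlapped at 21 days and were separate at 31 and 43 days. Each relative to HET hearts of its own age, the dKO hearts on chow of 43 days overlapped those of 31 days by a narrow margin. Each dKO heart at 43 days had 33 to 36 of its 36 members above the HET mean, against 11 to 26 in HET hearts of that age.

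**Figure D1:**
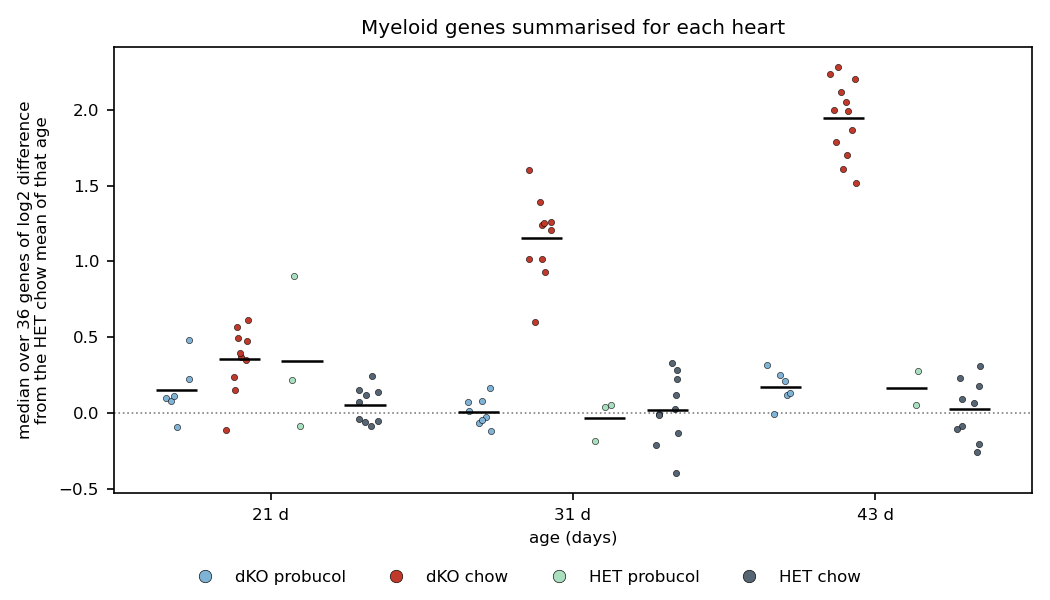
Each point is 1 heart and gives the median log2 level of the 36 members relative to their mean in HET hearts on chow of the same age, by group and age in days. The dKO hearts on chow at 43 days lie between 1.52 and 2.28, and the dKO hearts on probucol of that age between -0.01 and 0.32.

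Among the 11 surface, lysosomal and secreted markers, 3, 8 and 10 were higher in dKO hearts on chow at 21, 31 and 43 days, and the median log2 difference of the group at 43 days was 2.27. Cd68, a glycoprotein of macrophage lysosomes, had log2 levels of 1.71 to 3.02 (median 2.65) in dKO hearts at 21 days, against 0.65 to 1.44 (median 1.34) in HET hearts. At 31 days its log2 level was 3.12 to 4.46 (median 3.45) in dKO hearts, against 1.09 to 2.43 (median 1.86) in HET hearts. The groups did not overlap at either of these ages, nor at 43 days, when the log2 level was 3.09 to 4.34 (median 4.0) in dKO hearts, against 1.2 to 2.08 (median 1.74) in HET hearts. The log2 differences were 1.33 ± 0.15 (SE, limma adjusted p 4.48e-10), 1.81 ± 0.15 (adjusted p 6.06e-17) and 2.27 ± 0.15 (adjusted p 1.46e-23), the last a 4.83-fold difference.

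Mpeg1, which encodes the pore-forming phagosome protein perforin-2 and kills engulfed bacteria, was higher in dKO hearts at all 3 ages. Its log2 level was 2.19 to 3.25 (median 2.91) in dKO hearts at 21 days, against 0.81 to 1.97 (median 1.68) in HET hearts. At 43 days the log2 level was 4.67 to 5.56 (median 5.22) in dKO hearts, against 1.09 to 2.27 (median 1.70) in HET hearts, so the lowest dKO heart stood far above the highest HET heart. The log2 differences were 1.32 ± 0.16 (SE, limma adjusted p 1.33e-09), 2.01 ± 0.15 (adjusted p 7.98e-19) and 3.51 ± 0.15 (adjusted p 2.74e-34), youngest first, the last being 11.4-fold. Cd68 and Mpeg1 were the 2 members whose hearts did not overlap between genotypes at 21 days, where 0.158% of all genes had no overlap with dKO higher.

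Lyz2, the lysozyme of myeloid cells, which has a close relative in Lyz1, had log2 levels of 2.61 to 4.36 (median 3.46) in dKO hearts at 21 days, against 2.44 to 3.12 (median 2.84) in HET hearts, and these groups overlapped. By 43 days the log2 level was 5.47 to 6.23 (median 5.85) in dKO hearts, against 2.56 to 3.65 (median 3.31) in HET hearts, with no overlap. The log2 difference was 0.68 ± 0.16 (SE, limma adjusted p 0.00736) at 21 days, and at 43 days it was 2.66 ± 0.16 (adjusted p 4.08e-26).

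Cd53, a leukocyte tetraspanin, had the largest log2 difference of the 36 members at 43 days. Its log2 levels in dKO hearts on chow were -0.71 to 1.15 (median 0.46) at 21 days, 0.95 to 2.84 (median 2.23) at 31 days and 3.10 to 4.39 (median 3.64) at 43 days. In HET hearts on chow they were -1.33 to 0.24 (median -0.07), -3.09 to 0.52 (median -0.12) and -1.88 to 0.22 (median -0.73) at those ages. The genotypes overlapped at 21 days and were separate at 31 and 43 days. The log2 differences were 0.57 ± 0.31 (SE, limma adjusted p 0.33), 2.61 ± 0.30 (adjusted p 8.27e-11) and 4.36 ± 0.30 (adjusted p 1.86e-22), youngest first, the last being 20.5-fold.

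Adgre1, the F4/80 antigen of mouse macrophages, passed at 31 and 43 days and not at 21 days. At 21 days its log2 level was -1.71 to 1.08 (median -1.22) in dKO hearts, against -2.11 to 0.74 (median -0.23) in HET hearts, with a log2 difference of -0.38 ± 0.36 (SE, limma adjusted p 0.635). At 31 days the log2 level was 0.93 to 1.90 (median 1.31) in dKO hearts, against -1.58 to 0.95 (median -0.90) in HET hearts. At 43 days it was 1.03 to 2.31 (median 1.86) in dKO hearts, against -1.76 to 0.45 (median -0.73) in HET hearts, with a log2 difference of 2.57 ± 0.35 (adjusted p 1.27e-09). The genotypes were separate at 43 days, whereas at 31 days the lowest dKO heart lay just within the HET range.

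Mrc1, the mannose receptor CD206, and Cd14, the co-receptor for bacterial lipopolysaccharide, passed the test at 43 days alone, though Mrc1 also passed at 31 days with a block for the array set, at a log2 difference of 0.52 (limma adjusted p 0.0188), and on the signals as deposited, not centred on the array median, at 0.61 (adjusted p 0.00509). Mrc1 had log2 levels of 1.26 to 2.83 (median 2.30) in dKO hearts at 43 days, against 0.68 to 1.61 (median 1.08) in HET hearts, which overlapped, and its log2 difference was 1.23 ± 0.16 (SE, limma adjusted p 2.77e-10), against 0.29 ± 0.16 (adjusted p 0.18) at 31 days. Cd14 had log2 levels of 2.60 to 3.35 (median 2.75) in dKO hearts at 31 days, against 2.24 to 3.26 (median 2.91) in HET hearts. At 43 days its log2 level was 3.11 to 4.17 (median 3.54) in dKO hearts, against 2.49 to 3.04 (median 2.84) in HET hearts. The Cd14 groups overlapped at 31 days and were separate at 43 days, when the log2 difference was 0.76 ± 0.11 (adjusted p 9.21e-09).

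Of the other surface markers, Cd48, an adhesion molecule of the SLAM family, had log2 differences of 1.92 ± 0.30 (SE) at 31 days and 3.39 ± 0.29 at 43 days, and both passed. Cd52, a small membrane-anchored glycoprotein, had 0.70 ± 0.25 and 1.73 ± 0.25 at those ages, and Cd37, a second tetraspanin, 0.98 ± 0.29 and 0.88 ± 0.28, each past the threshold. At 31 days Cd37 no longer passed with a block for the array set, at 0.75 (limma adjusted p 0.0981), or within the larger set, at 0.49 (adjusted p 0.523). Aif1, the calcium-binding protein Iba1, was the 1 gene of the 11 that did not pass at 43 days, with log2 levels of -1.87 to 0.52 (median -0.72) in dKO hearts, against -3.22 to -0.62 (median -1.67) in HET hearts, and a log2 difference of 0.78 ± 0.34 (SE, limma adjusted p 0.0525). Aif1 passed with a block for the array set, at 0.83 (adjusted p 0.0471), and on the signals as deposited, at 1.13 (adjusted p 0.00871). Its signal was at the floor on 7 of the 88 arrays.

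The windows upstream of members that differed together are shown, since PU.1 binds purine-rich sites whose core reads GAGGAA or, in longer form, GAGGAAGT. Promoter sequence from RefSeq, build GRCm38.p6, was matched by symbol for 25 of the 38 members, and the 250 bases before the gene's start were searched on both strands for GAGGAA, for the motif AGGAAGT and for the longer GAGGAAGT, which overlap one another. GAGGAA occurred in 11 of the 25 members' windows (44.0%) and in 25.9% of 27025 genes, AGGAAGT in 8 (32.0%) and 8.8%, and GAGGAAGT in 2 (8.0%) and 2.79%. A gene with several starts counted where any of its windows held the motif. Aif1 and Fcgr3, which passed at no age on the centred scale, were among the 11 with GAGGAA. The sequences below run 5′ to 3′ along the gene's own strand, with the letters of a match on either strand in capitals. Cd68 and Cd53 carry GAGGAA, Lyz2 and Ptpn6 the reverse complement of AGGAAGT, and Cd37 and Vav1 the longest of the 3 motifs.
Cd68, chr11:69666171-69666420, minus strand: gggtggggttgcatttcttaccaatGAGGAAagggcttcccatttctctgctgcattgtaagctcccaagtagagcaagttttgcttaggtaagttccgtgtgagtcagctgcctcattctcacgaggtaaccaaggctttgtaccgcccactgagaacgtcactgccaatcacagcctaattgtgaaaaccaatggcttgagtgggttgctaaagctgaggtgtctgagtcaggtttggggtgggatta
Cd53, chr3:106790150-106790399, minus strand: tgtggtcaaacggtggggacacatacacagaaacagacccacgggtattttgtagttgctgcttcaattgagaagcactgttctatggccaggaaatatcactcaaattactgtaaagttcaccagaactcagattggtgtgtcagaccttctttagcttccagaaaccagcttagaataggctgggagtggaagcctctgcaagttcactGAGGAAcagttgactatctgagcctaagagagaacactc
Lyz2, chr10:117282273-117282522, minus strand: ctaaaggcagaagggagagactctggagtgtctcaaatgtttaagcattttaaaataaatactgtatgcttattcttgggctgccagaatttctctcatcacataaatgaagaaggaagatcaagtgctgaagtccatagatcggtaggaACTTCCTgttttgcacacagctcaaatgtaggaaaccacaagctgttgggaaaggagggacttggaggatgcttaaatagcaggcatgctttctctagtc
Ptpn6, chr6:124738710-124738959, minus strand: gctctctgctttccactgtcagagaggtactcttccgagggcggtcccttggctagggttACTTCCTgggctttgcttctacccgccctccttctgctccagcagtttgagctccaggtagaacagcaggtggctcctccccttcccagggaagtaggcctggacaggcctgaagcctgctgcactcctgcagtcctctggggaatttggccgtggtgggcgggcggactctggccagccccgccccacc
Cd37, chr7:45238840-45239089, minus strand: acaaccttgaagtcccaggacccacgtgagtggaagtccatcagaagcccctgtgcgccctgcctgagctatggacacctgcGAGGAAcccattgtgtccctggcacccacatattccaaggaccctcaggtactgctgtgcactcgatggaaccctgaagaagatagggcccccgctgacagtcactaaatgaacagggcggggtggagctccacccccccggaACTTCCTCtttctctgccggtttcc
Vav1, chr17:57278850-57279099, plus strand: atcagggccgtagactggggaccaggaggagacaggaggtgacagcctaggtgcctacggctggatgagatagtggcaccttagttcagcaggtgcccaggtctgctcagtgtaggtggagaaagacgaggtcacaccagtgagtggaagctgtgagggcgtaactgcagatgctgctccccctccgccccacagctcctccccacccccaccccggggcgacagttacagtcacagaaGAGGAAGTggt
The window of Mpeg1, whose difference was among the largest of the module, holds none of these motifs and is shown for contrast. The windows of Lilr4b, Cd48, Fcgr2b, Fcer1g, Ncf1 and Cybb, all higher at 43 days, also hold none of these motifs and are not shown.
Mpeg1, chr19:12460520-12460769, plus strand: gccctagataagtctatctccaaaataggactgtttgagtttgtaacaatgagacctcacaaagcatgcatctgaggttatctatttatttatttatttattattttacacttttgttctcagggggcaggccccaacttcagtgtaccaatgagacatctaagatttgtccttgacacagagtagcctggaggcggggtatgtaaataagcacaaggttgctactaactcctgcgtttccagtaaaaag
A match describes the letters of a window and is no measurement of binding.

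Of the 7 Fc receptors and paired receptors, 3, 6 and 6 were higher in dKO hearts on chow at the successive ages, with a median log2 difference of 2.73 at 43 days. Tyrobp, the adaptor chain DAP12 that couples many myeloid receptors to kinases, had log2 levels of 1.66 to 2.88 (median 2.09) in dKO hearts at 21 days, against 0.48 to 1.67 (median 1.40) in HET hearts, which overlapped by a single HET value. At 43 days its log2 level was 3.43 to 4.51 (median 4.15) in dKO hearts, against 0.99 to 2.06 (median 1.21) in HET hearts, with no overlap. The log2 differences were 0.94 ± 0.17 (SE, limma adjusted p 0.000214), 1.62 ± 0.17 (adjusted p 1.81e-12) and 2.73 ± 0.17 (adjusted p 3.47e-25), youngest first.

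Lilr4b encodes a gp49 receptor of the leukocyte immunoglobulin-like family and has a near-identical neighbour, so its probe set may also bind the neighbour's RNA. It had the largest log2 difference of the module at 21 days. Its log2 level was -0.25 to 1.69 (median 0.84) in dKO hearts at 21 days, against -1.98 to -0.23 (median -0.62) in HET hearts, and the lowest dKO heart lay just below the highest HET heart. At 31 days the log2 level was 2.37 to 3.16 (median 2.92) in dKO hearts, against -0.41 to 0.77 (median 0.12) in HET hearts. At 43 days it was 2.98 to 4.31 (median 3.61) in dKO hearts, against -0.59 to 0.25 (median -0.15) in HET hearts. Both later ages showed no overlap, and the log2 differences were 1.76 ± 0.20 (SE, limma adjusted p 1.93e-10), 2.79 ± 0.19 (adjusted p 4.7e-21) and 3.74 ± 0.19 (adjusted p 9.61e-30, 13.4-fold) at 21, 31 and 43 days.

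Of the 3 receptors for immunoglobulin G, Fcgr2b and Fcgr1 passed at 31 and 43 days and Fcgr3 did not. Fcgr2b, the inhibitory receptor, had log2 levels of -2.59 to -0.31 (median -0.62) in dKO hearts at 21 days, against -3.01 to -0.35 (median -1.11) in HET hearts. At 43 days its log2 level was 1.23 to 2.88 (median 2.14) in dKO hearts, against -1.91 to 0.17 (median -0.71) in HET hearts. The groups overlapped at 21 days and were separate at 31 and 43 days, and the log2 difference was 1.76 ± 0.36 (SE, limma adjusted p 0.000136) at 31 days, and at 43 days it was 2.80 ± 0.35 (adjusted p 1.95e-10). Fcgr1, the high-affinity activating receptor, had log2 differences of 0.80 ± 0.17 (adjusted p 0.000186) and 1.49 ± 0.16 (adjusted p 1.24e-12) at these ages. Fcgr3, a low-affinity activating receptor, had log2 levels of -3.72 to -0.16 (median -0.92) in dKO hearts at 43 days, against -3.27 to 0.13 (median -1.63) in HET hearts, and did not pass at any age. Its log2 differences were -0.91 ± 0.36 (SE, limma adjusted p 0.161), 0.70 ± 0.35 (adjusted p 0.145) and 0.62 ± 0.35 (adjusted p 0.148), youngest first, with a 95% interval at 43 days of -0.07 to 1.31.

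Fcer1g, the signalling chain shared by Fc receptors, had log2 levels of -2.98 to -1.40 (median -2.42) in dKO hearts at 21 days, against -3.40 to 0.03 (median -1.85) in HET hearts. At 43 days its log2 level was -0.56 to 0.89 (median 0.38) in dKO hearts, against -3.43 to -0.92 (median -2.15) in HET hearts, with a log2 difference of 2.71 ± 0.33 (SE, limma adjusted p 4.64e-11). The groups were separate at 43 days, but this probe set was at the floor on 20 arrays, and the gene's other probe set had a log2 difference of 0.38 ± 0.36 (adjusted p 0.41 over all probe sets). Sirpa, the receptor for the CD47 signal that restrains phagocytosis, had log2 differences of 1.27 ± 0.37 (adjusted p 0.0356), 3.14 ± 0.36 (adjusted p 7.47e-11) and 3.74 ± 0.36 (adjusted p 3.7e-15) at the 3 ages. Its 31-day difference was the largest of the module at that age, 8.8-fold, but with the array set as a block Lilr4b had a larger one.

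Csf1r and Spi1, the receptor and the transcription factor of the lineage, were each higher in dKO hearts at 43 days and at no earlier age, but on the signals as deposited Csf1r also passed at 31 days, with a log2 difference of 0.42 (limma adjusted p 0.0253). Its 43-day call was lost when its probe sets were averaged. Csf1r had log2 levels in dKO hearts on chow of 1.58 to 2.45 (median 2.11) at 21 days, 2.20 to 2.93 (median 2.47) at 31 days and 2.52 to 3.50 (median 2.96) at 43 days. In HET hearts on chow its log2 levels were 1.74 to 2.42 (median 2.06), 1.84 to 3.01 (median 2.43) and 1.76 to 2.55 (median 2.43) at those ages. The genotypes overlapped at each age, at 43 days by the highest HET and the lowest dKO heart, when the log2 difference was 0.76 ± 0.13 (SE, limma adjusted p 6.28e-07, 1.69-fold). At 21 and 31 days the 95% intervals of the log2 difference were -0.21 to 0.32 and -0.15 to 0.36. Spi1 had log2 levels of 0.98 to 2.02 (median 1.28) in dKO hearts at 43 days, against -1.46 to 1.28 (median 0.43) in HET hearts, which overlapped, and a log2 difference of 1.05 ± 0.26 (adjusted p 0.000698).

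The phagocyte oxidase, which makes superoxide in the phagosome, was represented by 5 genes, of which 1, 4 and 4 were higher in dKO hearts on chow at the successive ages, with a median log2 difference of 2.09 at 43 days. Among the membrane subunits, Cyba had log2 differences of 0.55 ± 0.14 (SE, limma adjusted p 0.0115), 0.84 ± 0.13 (adjusted p 1.77e-06) and 1.33 ± 0.13 (adjusted p 3.2e-14) at the 3 ages. The 21-day call of Cyba was lost with a block for the array set, at 0.45 (adjusted p 0.0736), within the larger set, at 0.18 (adjusted p 0.88), and as deposited, at 0.33 (adjusted p 0.228). Cybb, the catalytic subunit, had log2 levels of 0.17 to 1.55 (median 1.25) in dKO hearts at 43 days, against -2.55 to 0.11 (median -1.12) in HET hearts, with no overlap and a log2 difference of 2.09 ± 0.31 (adjusted p 2.61e-08). Of the cytosolic subunits, Ncf1 had log2 levels of -1.97 to 1.31 (median 0.77) in dKO hearts at 43 days, against -2.69 to -1.07 (median -2.05) in HET hearts, and these overlapped, with 2 of the 12 dKO hearts within the HET range. Its log2 difference was 2.42 ± 0.35 (adjusted p 9.95e-09), and that of Ncf4 was 3.05 ± 0.35 (adjusted p 7.07e-12), with no overlap for Ncf4. Rac2, the GTPase that completes the active enzyme, was the exception, with log2 levels of 1.85 to 2.81 (median 2.51) in dKO hearts at 43 days, against 1.66 to 2.64 (median 2.26) in HET hearts. Its log2 difference at that age was 0.16 ± 0.12 (adjusted p 0.311), with a 95% interval of -0.08 to 0.40, and on the signals as deposited it passed, with 0.50 (adjusted p 0.00853).

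Among 5 measured signalling genes, 0, 3 and 4 were higher in dKO hearts on chow at 21, 31 and 43 days, with a median log2 difference of 1.96 at 43 days. Ptprc, the pan-leukocyte phosphatase CD45, had log2 levels of -1.24 to -0.44 (median -0.89) in dKO hearts at 31 days, against -3.53 to -1.24 (median -2.79) in HET hearts. At 43 days its log2 level was -0.01 to 1.24 (median 0.27) in dKO hearts, against -3.34 to -1.42 (median -2.51) in HET hearts. The genotypes did not overlap at either age, and the log2 differences were 1.68 ± 0.31 (SE, limma adjusted p 2.39e-05) and 3.02 ± 0.30 (adjusted p 3.95e-14), where 5 and 3 HET hearts and 0 dKO hearts lay at the floor, which leaves these differences too small. Ptpn6, a phosphatase recruited by inhibitory receptors, had 1.54 ± 0.34 and 2.76 ± 0.33 at these ages, and the adaptor Lcp2 had 1.08 ± 0.32 and 1.96 ± 0.31, all past the threshold. At 31 days Lcp2 did not pass with a block for the array set, at 0.60 (adjusted p 0.236), and neither did Lcp2 nor Ptpn6 within the larger set. Vav1, a signalling protein of blood cells, passed at 43 days, with a log2 difference of 1.43 ± 0.31 (adjusted p 7.5e-05), and not at 31 days, when it did pass on the signals as deposited, with 0.98 (adjusted p 0.038). Fgr, a Src family kinase, had log2 levels of 0.61 to 1.47 in dKO hearts and 0.10 to 2.01 in HET hearts at 43 days, with a log2 difference of 0.09 ± 0.16 (adjusted p 0.668) and a 95% interval of -0.22 to 0.41.

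The 4 genes of the cytoskeleton and the lysosomal membrane gave 2, 3 and 4 higher members at the successive ages, with a median log2 difference of 1.79 at 43 days. Lcp1, the actin-bundling protein L-plastin, had a log2 difference of 1.19 ± 0.23 (SE, limma adjusted p 0.000401) at 21 days, and at 43 days it was 2.25 ± 0.22 (adjusted p 8.8e-15). For Laptm5, a lysosomal membrane protein of blood cells, the log2 differences were 0.71 ± 0.14 (adjusted p 0.00047) and 1.84 ± 0.13 (adjusted p 2.4e-21). Coro1a, an actin regulator of leukocytes, had log2 levels of 1.27 to 2.33 (median 1.88) in dKO hearts at 43 days, against -0.94 to 1.02 (median 0.26) in HET hearts, with no overlap and a log2 difference of 1.74 ± 0.32 (adjusted p 4.63e-06). Arhgdib had the smallest log2 difference of those that passed at 43 days, 0.29 ± 0.11 (adjusted p 0.025), and its call was lost in 5 of 16 alternatives, which ranged from 0.21 to 0.64.

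Both co-stimulatory genes were higher in dKO hearts at 31 days, and of the pair Cd83 alone passed at 43 days. The 31-day calls of both depended on the array set. With the set as a block Cd83 had a log2 difference of 0.54 (limma adjusted p 0.382) and Cd86 of 0.69 (adjusted p 0.27), and within the larger set these were 0.46 (adjusted p 0.67) for Cd83 and 0.55 (adjusted p 0.605) for Cd86. Cd83, a surface marker of activated antigen-presenting cells, had log2 differences of 1.04 ± 0.36 (SE, limma adjusted p 0.0259) and 1.56 ± 0.35 (adjusted p 0.000167). Cd86, a ligand for CD28 on T cells, had log2 levels of -1.88 to 0.22 (median -0.78) in dKO hearts at 31 days, against -3.10 to -0.71 (median -2.28) in HET hearts. At 43 days its log2 level was -2.83 to 0.08 (median -0.73) in dKO hearts, against -2.81 to -0.43 (median -1.32) in HET hearts. The log2 difference of Cd86 was 1.26 ± 0.38 (adjusted p 0.0107) at 31 days, and at 43 days it was 0.67 ± 0.38 (adjusted p 0.15), and the groups overlapped at both. As deposited, Cd86 passed at 43 days, with 1.01 (adjusted p 0.042).

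**Figure D2:**
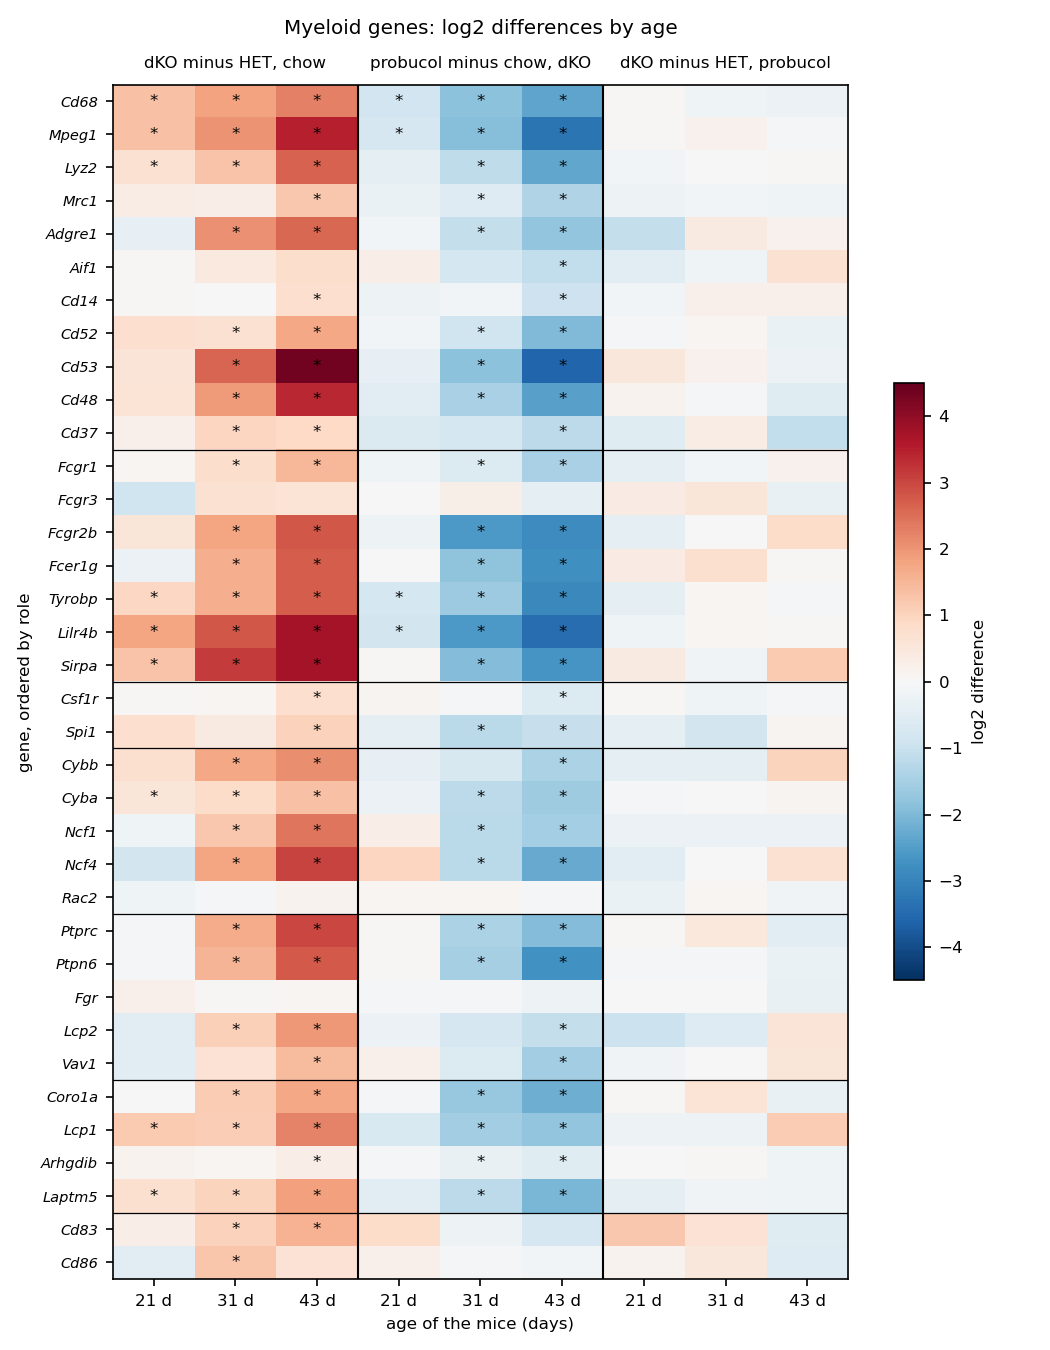
Each cell gives the log2 difference of a member, in rows, for a comparison, in columns, on a diverging colour scale, and a star marks an adjusted p under 0.05. The chow genotype columns fill with stars from 9 at 21 days to 31 at 43 days, and the 43-day cells of Rac2 and Fgr are pale, at 0.16 and 0.09 on the centred scale.

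By the age at which they first passed, the members fell into 4 classes. The 9 that passed at 21 days, Cd68, Mpeg1, Lyz2, Tyrobp, Lilr4b, Sirpa, Cyba, Lcp1 and Laptm5, passed at all 3 ages, as did 1.11% of all genes. A further 17 first passed at 31 days, 6 at 43 days (Mrc1, Cd14, Csf1r, Spi1, Vav1 and Arhgdib), and 4 at none (Aif1, Fcgr3, Rac2 and Fgr). Of the 26 that passed at 31 days, Cd86 was the 1 that did not at 43 days. The classes shift with the scaling. On the signals as deposited Mrc1, Csf1r, Vav1 and Arhgdib passed at 31 days, and Aif1, Rac2 and Cd86 passed at 43 days, as did Fcgr3, with a log2 difference of 0.96 (limma adjusted p 0.0366). Fgr, at 0.44 (adjusted p 0.0554), did not. No overlap between genotypes was seen for 2, 13 and 21 members at the successive ages, where 0.158%, 0.824% and 3.88% of all genes had none with dKO higher.

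The 21-day result moved with the array set. Within the larger set, where 4 dKO and 7 HET hearts were compared, Cd68 had a log2 difference of 1.01 (limma adjusted p 0.00165), Mpeg1 1.26 (adjusted p 3.4e-05) and Lilr4b 1.18 (adjusted p 0.00584), and these 3 were the members called. Over all 8252 genes, 13 were higher there. Lyz2, Tyrobp, Sirpa, Cyba, Lcp1 and Laptm5 did not pass there, with log2 differences of 0.31, 0.64, 0.79, 0.18, 0.90 and 0.52. Within the smaller set, with 6 dKO and 2 HET hearts, 5 members were called, namely Cd68 at 1.41 (adjusted p 0.00298), Mpeg1 at 1.30 (adjusted p 0.0314), Lilr4b at 2.55 (adjusted p 0.00298), Cyba at 0.99 (adjusted p 0.028) and Lcp1 at 1.01 (adjusted p 0.0409) in log2 difference. Over all genes, 222 were called in the smaller set. Cd68, Mpeg1 and Lilr4b thus passed in both sets. Of the 2 HET hearts in the smaller set, replicate 2 was 1 of the 3 arrays that stood apart. With the array set as a block 8, 22 and 32 members were higher at the successive ages, against 99, 370 and 1321 of 8252 genes. With this block Cd37, Ncf1, Lcp2, Cd83 and Cd86 no longer passed at 31 days, while Mrc1 did. Within the larger set 19 passed at 31 days, where 268 of 8252 genes were higher, Fcer1g and Ptpn6 being lost beside those 5. At 21 days Cyba lost its call with the block, and Lyz2, Sirpa, Cyba and Laptm5 did as deposited. On the signals as deposited, without centring on the array median, 5, 30 and 35 members were higher, while all genes gave 37 higher and 91 lower at 21 days, 1286 and 219 at 31 days, and 2327 and 703 at 43 days, against 196 and 66, 552 and 1344, and 1263 and 2143 with centring. Without centring the median log2 difference of all genes was -0.16, 0.19 and 0.19 at the successive ages.

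A test of the change of the genotype difference between ages gave 16 members that were larger at 31 than at 21 days, against 4.16% of all genes, and 12 that were larger at 43 than at 31 days, against 4.51%. None was smaller in either test, against 13.2% and 2.12% of all genes, and at an unadjusted p under 0.05 also 0 were smaller in each. From 21 to 31 days the change was largest for Ncf4, whose log2 difference grew by 2.59 ± 0.51 (SE, limma adjusted p 0.000527), and for Adgre1, by 2.45 ± 0.50 (adjusted p 0.000798). Cd53 grew by 2.04 ± 0.43 (adjusted p 0.00102) in the same span and by 1.74 ± 0.42 (adjusted p 0.00404) from 31 to 43 days, the largest change of the later span. Mpeg1 grew by 1.5 ± 0.22 (adjusted p 5.16e-07) and Lyz2 by 1.38 ± 0.22 (adjusted p 6.94e-06) in the later span. Cd68 did not pass in either test, with 0.47 ± 0.22 (adjusted p 0.112) and 0.46 ± 0.21 (adjusted p 0.19). Between 21 and 31 days the count differed with the array set, being 6 with the set as a block and 6 within the larger set. With the block Ncf4 grew by 2.65 (adjusted p 0.00568), but Adgre1 by 1.41 (adjusted p 0.107), less than Fcer1g at 1.78 and Cd53 at 1.57, and Adgre1, Fcer1g and Cd53 did not pass. Within the larger set Ncf4 had 2.57 (adjusted p 0.0966) and Adgre1 1.56 (adjusted p 0.509). Cd68, in contrast, passed from 21 to 31 days in both, by 0.92 (adjusted p 0.0118) with the block and 1.18 (adjusted p 0.0188) within the larger set, and as deposited by 1.01 (adjusted p 0.00143). Within the larger set the largest change of the later span was that of Ptpn6, at 2.02.

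**Figure D3:**
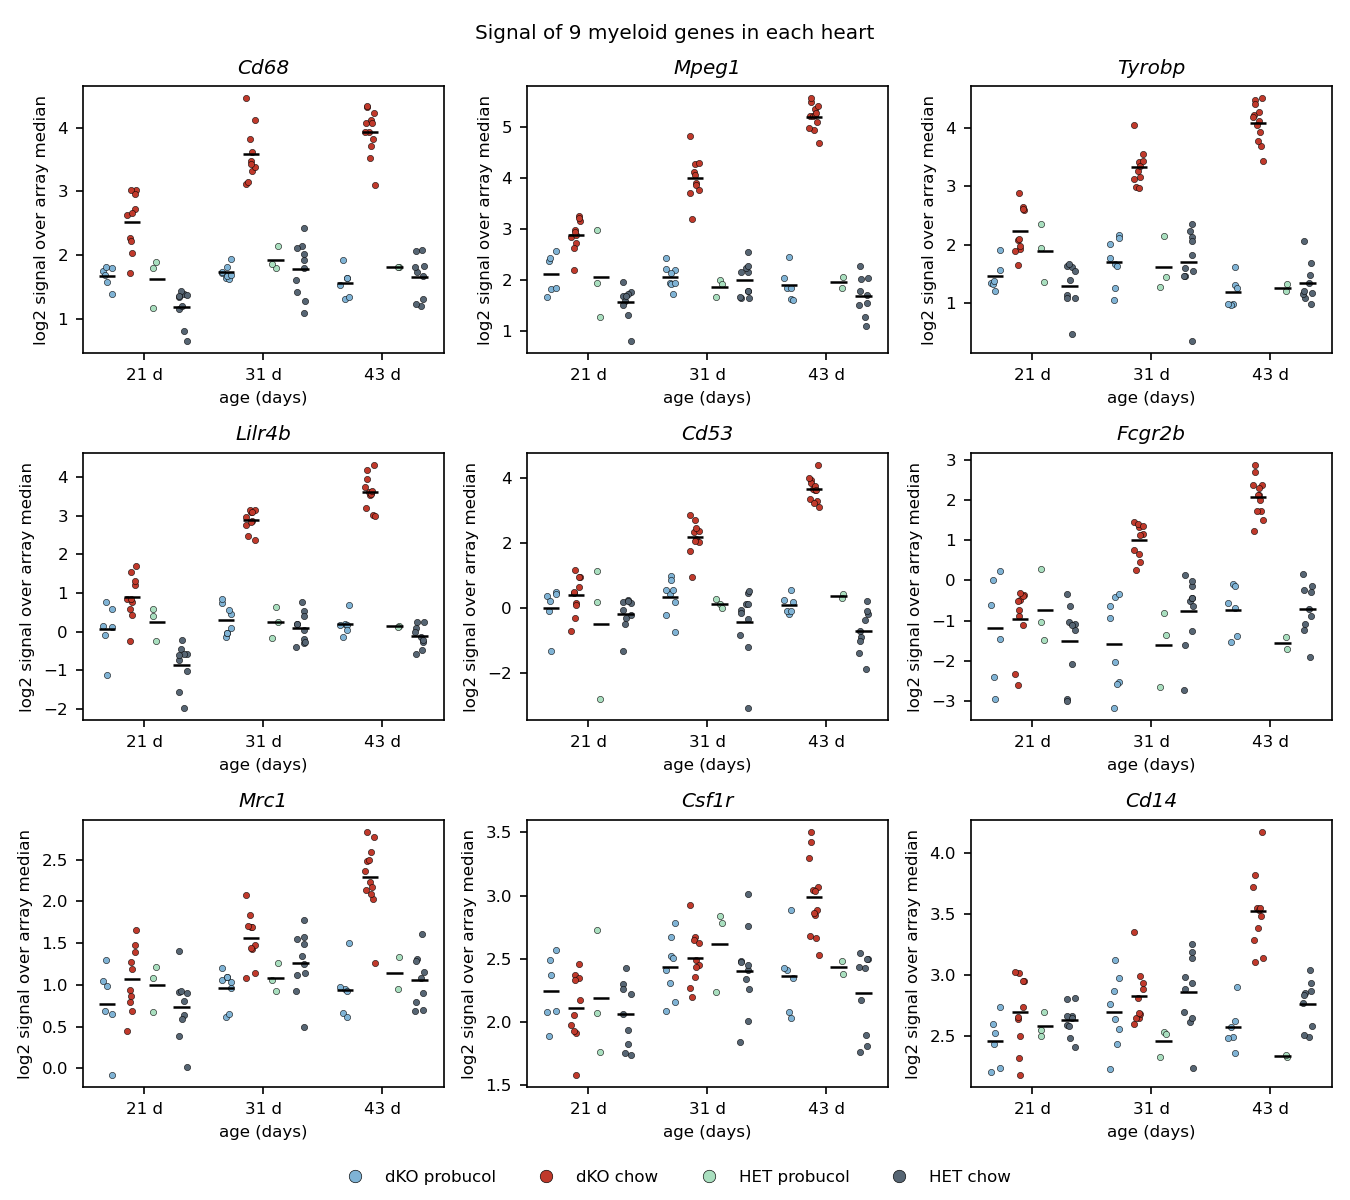
Each panel shows 1 of 9 members, with each point a heart, the vertical axis its log2 level relative to the array median, and the groups along the horizontal axis by age in days. Cd68 and Mpeg1 separate dKO from HET hearts on chow at 21 days, Cd53 and Fcgr2b from 31 days, and Cd14 at 43 days, while Csf1r overlaps at each age.

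On probucol some members were lower in dKO hearts than on chow at 21 days, and most were at 31 and 43 days. At 21 days 4 members were lower with probucol, against 0.727% of all genes, at 31 days 24, against 8.35%, and at 43 days 31, against 13.1%. None was higher, against 0.0848%, 5.74% and 16.8% of all genes, and an unadjusted p under 0.05 would have called 2, 0 and 0 members higher at the successive ages. The median log2 difference over the members was -0.15, -1.16 and -1.70, against -0.07, 0.04 and 0.11 over all genes. These comparisons share the dKO chow hearts with the genotype comparison on chow, so the values of both are not independent.

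Per heart, the members' median relative to the HET chow mean of the same age was -0.09 to 0.48 (median 0.10) in log2 units in dKO hearts on probucol at 21 days, -0.12 to 0.16 (median -0.01) at 31 days and -0.01 to 0.32 (median 0.17) at 43 days. The probucol and chow hearts of dKO mice overlapped at 21 days and were separate at 31 and 43 days on this summary. Single members had no overlap with probucol lower in 10 cases at 31 days, against 1.49% of all genes, and in 23 at 43 days, against 5.87%.

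The members lower with probucol at 21 days were Cd68, Mpeg1, Tyrobp and Lilr4b. Cd68 had log2 levels of 1.39 to 1.81 (median 1.72) in dKO hearts on probucol at that age, against 1.71 to 3.02 (median 2.65) on chow, and a log2 difference of -0.86 ± 0.17 (SE, limma adjusted p 0.00514). For Mpeg1 the log2 difference was -0.76 ± 0.18 (adjusted p 0.016), for Tyrobp -0.78 ± 0.20 (adjusted p 0.0305) and for Lilr4b -0.83 ± 0.22 (adjusted p 0.0489). This count was 0 within the larger array set and 0 on the signals as deposited, and 2 without dKO chow replicate 2 at 21 days, whose description gives another age than its title.

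At 43 days the ranges of Cd68 and Mpeg1 in dKO hearts on probucol overlapped those of HET hearts on chow. Cd68 had log2 levels of 1.31 to 1.93 (median 1.58) on probucol, against 3.09 to 4.34 (median 4.0) on chow in dKO hearts, and a log2 difference of -2.36 ± 0.17 (SE, limma adjusted p 4.72e-21). Mpeg1 had 1.61 to 2.44 (median 1.84) on probucol, against 4.67 to 5.56 (median 5.22) on chow, as log2 levels, and a log2 difference of -3.30 ± 0.17 (adjusted p 1.38e-28). Cd53 had the most negative log2 difference, -3.55 ± 0.34 (adjusted p 7.25e-15), from log2 levels of -0.19 to 0.53 (median 0.04) on probucol, against 3.10 to 4.39 (median 3.64) on chow. None of these 3 genes overlapped between diets.

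The receptors followed at 43 days, where Lilr4b had log2 levels of -0.14 to 0.68 (median 0.17) in dKO hearts on probucol, against 2.98 to 4.31 (median 3.61) on chow, and a log2 difference of -3.43 ± 0.22 (SE, limma adjusted p 1.01e-23). Tyrobp had 0.98 to 1.62 (median 1.13) on probucol, against 3.43 to 4.51 (median 4.15) on chow, as log2 levels, and a log2 difference of -2.89 ± 0.19 (adjusted p 7.1e-23). Of the 7 Fc and paired receptors 6 were lower, and Fcgr3 had a log2 difference of -0.43 ± 0.39 (adjusted p 0.448). Fcgr2b was the most negative member at 31 days, with log2 levels of -3.18 to -0.33 (median -1.48) on probucol, against 0.26 to 1.45 (median 1.15) on chow, and a log2 difference of -2.58 ± 0.38 (adjusted p 2.47e-07).

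By role, all 11 surface, lysosomal and secreted markers were lower with probucol at 43 days, Aif1 included, with a log2 difference of -1.11 ± 0.38 (SE, limma adjusted p 0.0196). Csf1r and Spi1 were lower, with log2 differences of -0.62 and -1.04 (adjusted p 0.000361 and 0.00424), and at 31 days Spi1 passed with -1.2 ± 0.28 while Csf1r had -0.08 ± 0.14 (adjusted p 0.767). The oxidase subunits other than Rac2, 4 of 5, were lower at 43 days, from -2.28 for Ncf4 to -1.43 for Cybb in log2 difference. Among signalling genes 4 of 5 were lower, led by Ptpn6 at -2.71 ± 0.38, and all 4 genes of the cytoskeleton and lysosomal membrane were. Cd83, with -0.76 ± 0.40 (adjusted p 0.143), Cd86, with -0.12 ± 0.43 (adjusted p 0.865), Fcgr3, Rac2 and Fgr were the 5 members that did not pass.

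**Figure D4:**
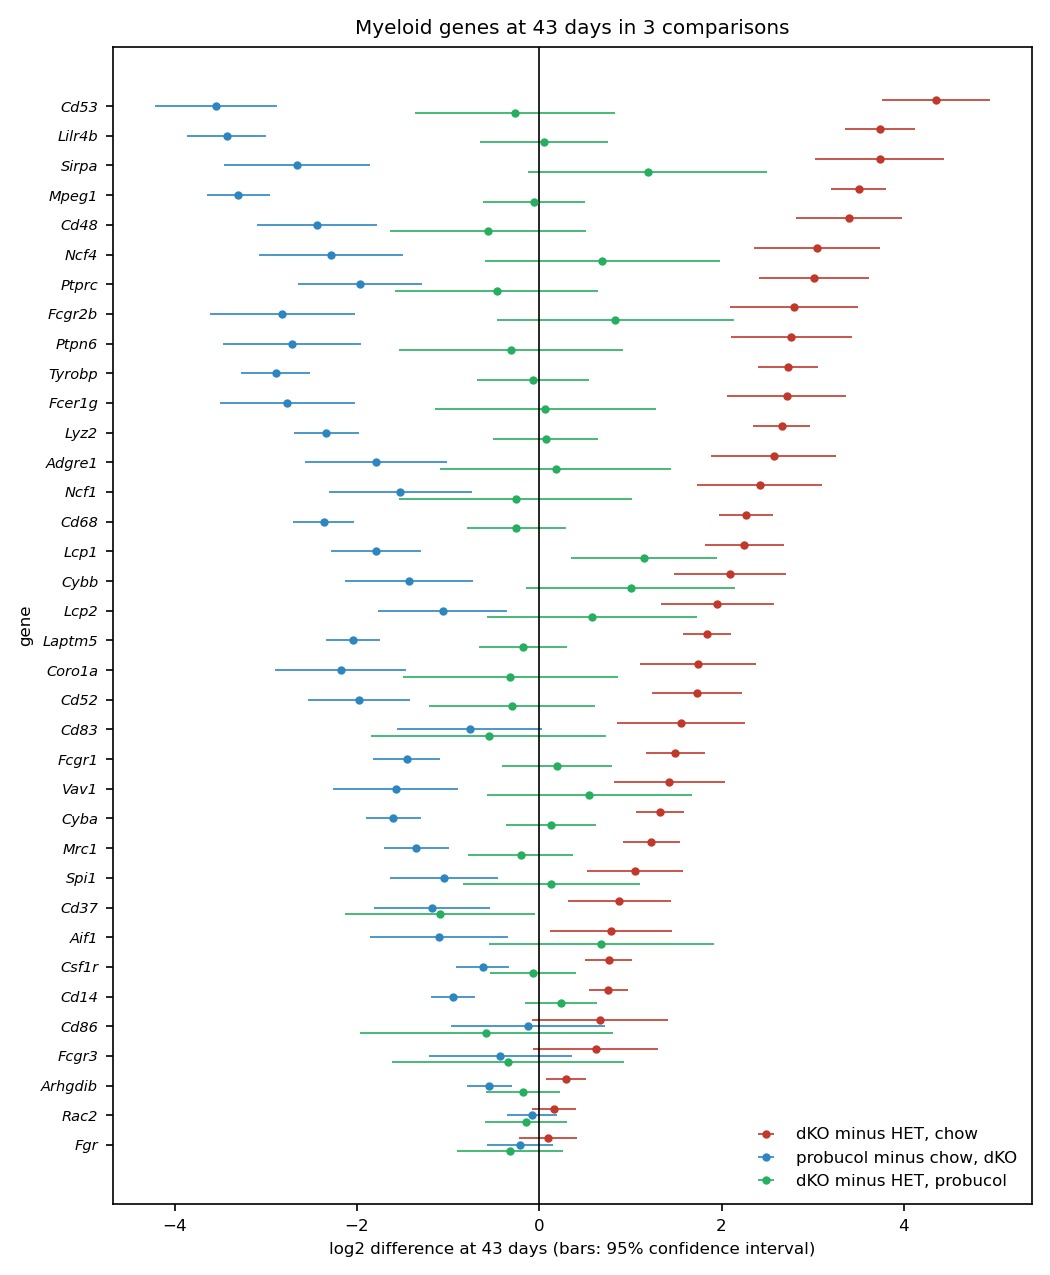
Log2 differences at 43 days with 95% intervals are drawn for each of the 36 members in 3 comparisons, dKO against HET on chow, probucol against chow in dKO, and dKO against HET on probucol. The chow genotype differences lie above 0 for 36 of 36 members and the probucol differences below 0 for 36 of 36, while those between genotypes on probucol lie on both sides of 0.

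Between genotypes on probucol no member passed at 21, 31 or 43 days, where at most 0.0242% of all genes passed in either direction. At an unadjusted p under 0.05, 1 member was higher and 1 lower in dKO hearts at 21 days, 0 and 1 at 31 days, and 1 and 1 at 43 days. The HET probucol groups of 3, 3 and 2 hearts leave wide intervals, so this does not show that the genotypes were equal on the drug. Cd68 had log2 levels of 1.31 to 1.93 (median 1.58) in dKO hearts on probucol at 43 days, against 1.81 and 1.82 in the HET hearts, and a log2 difference with a 95% interval of -0.80 to 0.29. For Mpeg1 the log2 levels were 1.61 to 2.44 in dKO hearts and 2.06 and 1.84 in HET hearts, with an interval of -0.61 to 0.50 for the log2 difference. Sirpa had the highest log2 difference, 1.19 ± 0.66 (SE, limma adjusted p 0.941), and Cd37 the lowest, -1.09 ± 0.53 (adjusted p 0.939).

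In HET mice probucol against chow, averaged over the 3 ages, changed no member past the threshold, where 0.291% of all genes were higher and 1.33% lower, and 4 members were higher and 1 lower at an unadjusted p under 0.05. Cd68 had log2 levels of 1.17, 1.90 and 1.79 in the 3 HET hearts on probucol at 21 days, 1.79, 2.14 and 1.85 at 31 days and 1.81 and 1.82 in the 2 hearts of 43 days. Cd53 had 0.19, -2.82 and 1.14, then 0.11, -0.01 and 0.27, then 0.43 and 0.30 as log2 levels at these ages. The Cd53 values of 21 days spread more widely than those of the later ages. The members' median relative to the HET chow mean of the same age was 0.21, -0.08 and 0.90 in log2 units in the HET probucol hearts of 21 days, 0.04, 0.05 and -0.19 at 31 days and 0.28 and 0.05 at 43 days. The third heart of 21 days was thus higher than any HET heart on chow of that age. It was also higher than any dKO heart on chow of that age, the highest of which had 0.61.

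The probucol effect itself differed between genotypes at 43 days. The test of that difference found 23 members with a more negative log2 effect in dKO than in HET hearts, against 5.49% of all genes, and none with a more positive one, against 7.83% of all genes, nor at an unadjusted p under 0.05, where 28 were more negative. It was largest for Cd53, -4.63 ± 0.63 (SE, limma adjusted p 3.04e-08), Cd48, -3.96 ± 0.61 (adjusted p 1.06e-06), and Lilr4b, -3.69 ± 0.40 (adjusted p 5.73e-11). Only 2 HET hearts on probucol entered it, and leaving out either gave 15 and 16 members, with the remaining heart assumed to vary like the other groups.

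With age, few members passed in HET hearts on chow or in dKO hearts on probucol. In HET hearts on chow at 43 against 21 days 1 member was higher, Lilr4b, with a log2 difference of 0.74 ± 0.20 (SE, limma adjusted p 0.0431), against 0.497% of all genes, and none was lower, against 0.969%, while at an unadjusted p under 0.05 there were 8 higher and 2 lower. The Lilr4b call was lost without the 3 arrays that stood apart, and 11 members passed on the signals as deposited. In dKO hearts on probucol at 43 against 21 days no member passed, where 0.376% of all genes were higher and 1.39% lower, and 3 were higher and 1 lower at an unadjusted p under 0.05. Cd68 had a log2 difference of -0.10 ± 0.19 (95% interval -0.49 to 0.28) in that comparison and Mpeg1 -0.22 ± 0.20 (95% interval -0.62 to 0.17).

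Among dKO hearts on chow of 43 days some hearts were high or low in most members. Replicate 8 had 34 of 36 members above the mean of its own group and replicate 1 had 33, whereas replicate 5 had 5 and replicates 4 and 7 had 9 each. At 31 days replicate 1 had 29 of 36 above its group's mean, against 6 in replicate 8, 7 in replicate 5 and 8 in replicates 4 and 10. At 21 days the counts ran from 8 in replicate 4 to 27 in replicate 1. The members of an array share its RNA and its median, so these counts are not independent measurements of a heart, and no test was made on them.

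The cytosolic oxidase subunit Ncf1 was the most uneven member in dKO hearts of 43 days, with a log2 level SD of 1.06 (n = 12), and Fcgr3, Aif1 and Cd86 followed with 0.95, 0.78 and 0.76. Fcgr3, Aif1 and Cd86 were among the 11 members at the floor on at least 1 array, and the other 25 were never there. The median SD over the 36 members was 0.39 in dKO hearts on chow of 43 days, against 0.62 in HET hearts of that age.

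Other probe sets with 1 symbol existed for 15 members, 18 in number, and 9 of these were higher in dKO hearts on chow at 43 days and 0 lower. Log2 differences from the second probe set exceeded those of the chosen one for Fcgr1 (2.77 ± 0.30), Cyba (1.88 ± 0.23) and Cd83 (2.23 ± 0.42). They were smaller for Laptm5 (1.13 ± 0.12), Lcp1 (1.04 ± 0.40) and Csf1r (0.19 ± 0.41). The probe sets disagreed for Adgre1, whose dimmer one had -0.36 ± 0.30, and for Vav1, with 2.60 ± 0.34 and -0.32 ± 0.29. Sirpa had 3.32 ± 0.35 and 1.99 ± 0.40 from its other probe sets, and Ptprc 2.67 ± 0.34 from one of its others. The dimmest ones, of Cd68, Lyz2, Mpeg1, Ptprc and Cd86, were at the floor on 52, 50, 61, 72 and 37 of the 88 arrays and had log2 differences of -0.09, 0.20, -0.24, -0.13 and 0.35, none past the threshold. The chosen probe sets of Cd68, Cd86, Fcer1g, Fcgr1, Fcgr2b, Ptpn6 and Vav1 carry the suffix that Affymetrix gives to sets that may bind more than 1 transcript.

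The module was set beside lists of other cell types, described by counts and medians without a test of the list. The members and lists were chosen with earlier results of these data known, so the counts are no independent check of the module's label. Of 27 further macrophage and lysosomal genes on the array, 10, 20 and 22 were higher in dKO hearts on chow at the successive ages. None was lower. Over all genes 2.38%, 6.69% and 15.3% were higher and 0.8%, 16.3% and 26% lower. The median log2 difference of the 27 genes at 43 days was 1.77. Lgals3, the lectin galectin-3, had a log2 difference of 5.86 ± 0.36 (SE), Ctss, a lysosomal protease, 4.06 ± 0.19, Clec4d, a C-type lectin receptor, 3.80 ± 0.22 and C3ar1, the receptor for a complement fragment, 2.34 ± 0.14. Of 9 monocyte and recruited macrophage markers, 0, 4 and 6 were higher and none lower, with Arg1, arginase, at 5.35 ± 0.32, Ccr2, the receptor that draws monocytes from blood, at 3.16 ± 0.37, Plac8 at 2.93 ± 0.25 and Il1b at 2.71 ± 0.36. Their summed signal at 43 days was 16.3 to 55.6 times the array median in dKO hearts, against 5.18 to 8.18 in HET hearts.

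Of the 7 markers of resident cardiac macrophages none was higher at 43 days, against 15.3% of all genes, and 2 were lower, against 26%. Lyve1, a hyaluronan receptor, had a log2 difference of -0.85 ± 0.21 (SE, limma adjusted p 0.00042), and Igf1 had -0.45 ± 0.09 (adjusted p 2.02e-05). After quantile normalization, and with the array set as a block, 2 were higher and 2 lower. On the signals as deposited Igf1 had -0.10 (adjusted p 0.575) and Lyve1 -0.51 (adjusted p 0.035). There 2 markers were higher, Folr2 at 0.69 (adjusted p 7.02e-05) and Gas6 at 0.59. The summed signal of the list at 43 days was 21.5 to 31 times the array median in dKO hearts, against 21.9 to 31.5 in HET hearts, and the groups overlapped. These genes are also expressed outside macrophages, Lyve1 in lymphatic vessels and Igf1 in several cell types.

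Among markers of other leukocytes fewer passed, and in both directions. Over all genes 15.3% were higher and 26% lower at 43 days, or 2327 and 703 of 8252 genes as deposited. Of 12 T cell markers 0 were higher and 4 lower at 43 days, with Zap70, a T cell receptor kinase, at -0.94 ± 0.19 (SE), but 1 was higher and 1 lower on the signals as deposited. Their summed signal was 4.86 to 8.17 times the array median in dKO hearts, against 4.93 to 11 in HET hearts, and 8 of the 12 were at the floor on some array. Of 11 B cell markers 3 were higher and 3 lower, or 3 and 1 as deposited, where Cd72, also found on macrophages, had 3.25 ± 0.31 and Cd79a, a chain of the B cell receptor, -1.29 ± 0.22, and the summed signal was 11.1 to 16 in dKO hearts, against 9.71 to 17.1 in HET hearts. Of 6 NK cell markers none passed, 5 of them being at the floor on some array, with a sum of 1.87 to 3.89 in dKO hearts, against 1.68 to 4.52 in HET hearts. Among 8 dendritic cell markers Itgax alone was higher, at 0.83 ± 0.19, but 3 were as deposited, where Fscn1 had a log2 difference of 0.55 (limma adjusted p 0.00746) and Batf3 one of 0.55 (adjusted p 0.0119). Of 7 mast cell markers Kit was higher at 1.02 ± 0.28 and 2 were lower, Cpa3 at -1.49 ± 0.33 and Mcpt4 at -0.69 ± 0.21. As deposited Mcpt4 did not pass, at -0.34 (adjusted p 0.228).

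Of 13 neutrophil markers, 3 were higher at 43 days and 1 lower, against 15.3% and 26% of all genes. On the signals as deposited 5 were higher and 0 lower. S100a8 and S100a9, calcium-binding proteins of neutrophils and monocytes, had log2 differences of 3.08 ± 0.31 and 3.77 ± 0.38 (SE), Mmp9, a gelatinase, 0.98 ± 0.29, and Elane, neutrophil elastase, -0.51 ± 0.17. The summed signal was 16.7 to 39.4 times the array median in dKO hearts, against 9.85 to 21.8 in HET hearts, which overlapped, and no marker was at the floor on all arrays. The part of neutrophils in the result was not tested.

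Lists for cell types of the heart wall and for proliferation were counted in the same way. Over all genes 2.38%, 6.69% and 15.3% were higher and 0.8%, 16.3% and 26% lower at the successive ages. Of 13 cardiomyocyte markers 0, 13 and 12 were lower in dKO hearts on chow at the successive ages, though at 31 days 7 were lower on the signals as deposited, 8 after quantile normalization and 9 with the array set as a block, and at 43 days 10, 10 and 12. They had a summed signal of 560 to 1100 times the array median in dKO hearts, against 799 to 1710 in HET hearts. Hrc, which binds calcium in the sarcoplasmic reticulum, had a log2 difference of -2.12 ± 0.16 (SE) at 43 days and Ckm, muscle creatine kinase, -2.06 ± 0.15. Of 12 fibroblast markers 1, 3 and 8 were higher, and 1 was lower at 43 days, or 11 higher and 0 lower at that age as deposited, with Postn, periostin, at 2.97 ± 0.17 and Col3a1, a fibrillar collagen, at 2.28 ± 0.14, and the sum was 331 to 418 in dKO hearts, against 142 to 248 in HET hearts. Of 14 cell cycle genes 7 were higher and 1 lower at 43 days, or 9 and 0 as deposited, with Cdk1 at 1.96 ± 0.39 and Ccna2, cyclin A, at 1.52 ± 0.27. Of 11 endothelial markers 3 were higher and 1 lower, and of 7 smooth muscle markers 0 were higher and 2 lower. On the signals as deposited 5 endothelial markers were higher and 1 lower, and 2 smooth muscle markers were higher and 1 lower, so the balance of the smooth muscle list turned with the scaling. The part of these shifts in the members' values was not tested.

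**Figure D5:**
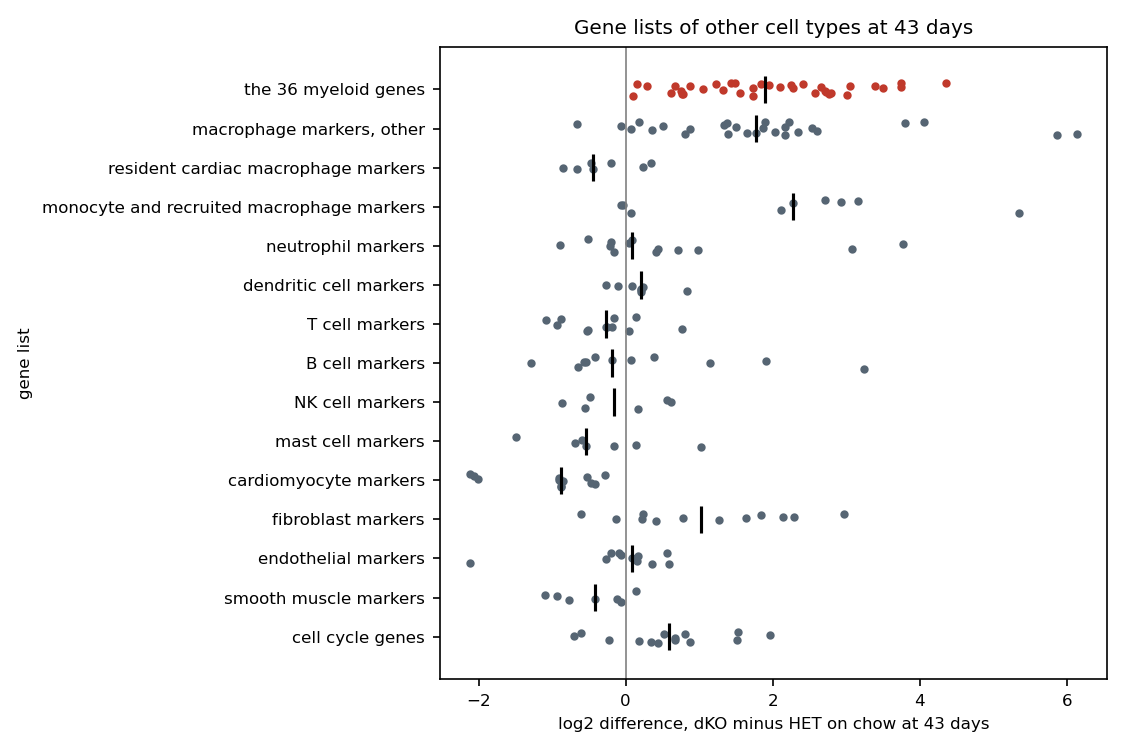
Each dot is the log2 difference of 1 gene between dKO and HET hearts on chow at 43 days, in rows for the 36 members and 14 other gene lists, with a bar at the median of each row. The members (median 1.90), the other macrophage genes (1.77) and the monocyte markers (2.27) lie to the right, and cardiomyocyte markers (median -0.88) to the left.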

How the data were processed

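RNA from 88 mouse hearts, 1 mouse per array, was measured on Affymetrix arrays. The deposited values are linear signal intensities for 12488 probe sets, made by the authors with MAS5, per the submitters' processing notes and no source used here gives the scaling step. The array annotation gave 1 symbol for 10855 probe sets and several for 396, and 10839 were matched by gene identifier to the RefSeq table of GRCm38.p6. The probe set with the highest mean signal stood for each of 8252 genes. The deposited intensities were raised to a floor at their 10th percentile (4.22), turned into log2 values and centred on each array's median. No gene was left out for a low level.

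A model of 12 group means with 15 contrasts was fitted over all 88 arrays in limma 3.58.1 (R 4.3.3) with a trended prior, and p-values were adjusted by Benjamini-Hochberg over 8252 genes at a threshold of 0.05. Errors are SE of the fitted difference unless given as SD. Nothing but the labels shows that arrays are independent animals. The number of arrays limits the precision. Alternatives changed the scaling, the floor, the filter, the choice of probe set, the samples and the covariates. The log2 ratio of 3′ to 5′ Gapdh signal, a check of RNA quality, was 1.28 in dKO chow replicate 2 at 43 days. The next highest was 0.19, in HET chow replicate 1 at 21 days. In that dKO heart the members' median relative to the HET chow mean was 1.79. By Y-linked Eif2s3y against Xist, the transcript of female cells, both sexes were present. On chow Eif2s3y was the higher in 4 of 10, 6 of 10 and 7 of 12 dKO hearts at the successive ages. In HET hearts on chow it was so in 4 of 9, 6 of 10 and 5 of 9. On probucol the counts were less even, at 1 of 6, 3 of 8 and 2 of 6 dKO hearts and 0 of 3, 2 of 3 and 2 of 2 HET hearts. The procedure was tested on simulated data with independent noise for each gene and array. The simulation had no array sets and no floor, so it does not bear on those. The members and gene lists were chosen with earlier results of these data known. Heart values are given for 19 members chosen by role and for others named with a difference, so that each member is accounted for, and named genes of the other lists are among the 4 with the smallest p between genotypes on chow at 43 days. Same-numbered arrays of different groups had a mean residual correlation of 0.00685, so replicate numbers were not treated as pairs.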

Additional observations from a re-analysis of the deposited data

Results flagged for a closer look

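A single heart stood away from the rest of its group in 26 of 288 combinations of a member and a group of 4 to 10 hearts, by a gap rule that chance meets in about 1 in 20 groups. Values are log2 levels, each with its nearest neighbour, and no cause was tested.

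Among surface markers, Adgre1 was 1.30 in dKO probucol replicate 2 at 21 days (next -1.13), Cd14 was 3.35 in dKO chow replicate 1 at 31 days (next 2.99), and Cd52 was -0.05 in dKO chow replicate 4 at 21 days (next 0.74). Cd53 was low in 3 groups, at -1.33 in HET chow replicate 3 at 21 days (next -0.51), -3.09 in HET chow replicate 3 at 31 days (next -1.22) and -1.33 in dKO probucol replicate 1 at 21 days (next -0.11).

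Among receptors, Fcgr1 was 1.06 in HET chow replicate 2 at 21 days (next 0.67), Fcer1g was -0.66 in HET chow replicate 8 at 31 days (next -1.93), and Sirpa was -1.33 in dKO probucol replicate 2 at 31 days (next -0.10). Tyrobp was 0.48 in HET chow replicate 7 at 21 days (next 1.09) and 0.36 in HET chow replicate 5 at 31 days (next 1.47).

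Among oxidase subunits, dKO chow replicate 8 at 31 days was low for Cybb at -0.68 (next 0.06) and for Ncf4 at -2.25 (next -0.34), and this heart also had the lowest members' median of its group, 0.60. Ncf4 was 0.39 in dKO probucol replicate 3 at 31 days (next -1.04), Cyba was 2.05 in HET chow replicate 2 at 21 days (next 2.57), and Rac2 was 0.88 in dKO chow replicate 3 at 21 days (next 1.75). HET chow replicate 2 at 21 days, 1 of the 3 arrays that stood apart, was also high for Vav1 at 1.14 (next -0.05).

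Vav1 was further away in 3 groups, at 0.33 in dKO chow replicate 2 at 21 days (next -0.69), -2.51 in HET chow replicate 4 at 31 days (next -0.94) and -2.48 in dKO probucol replicate 1 at 21 days (next -0.54). Lcp2 was -2.21 in dKO probucol replicate 2 at 43 days (next -1.40), and the same heart had Arhgdib at 2.61 (next 2.97). Arhgdib was 3.44 in dKO probucol replicate 6 at 21 days (next 3.09) and Laptm5 was 2.12 in dKO chow replicate 7 at 21 days (next 2.68). Cd83 was -1.83 in dKO probucol replicate 6 at 43 days (next -0.69) and Cd86 was -2.74 in dKO probucol replicate 1 at 31 days (next -1.23).

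Effects that differed between groups by limma's test of the difference itself were also listed. The chow genotype difference was larger at 31 than at 21 days for 16 members, most for Ncf4 (2.59) and Adgre1 (2.45) in log2 units. It was larger at 43 than at 31 days for 12 members, most for Cd53 (1.74) and Mpeg1 (1.5). The probucol effect at 43 days was more negative in dKO than in HET hearts for 23 members, most for Cd53 (-4.63) and Cd48 (-3.96).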

How the results depend on the processing

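The counts of members higher in dKO hearts on chow at 31 and 43 days and lower with probucol in dKO hearts at those ages stayed within 1.5 times of the reported ones, at 19 to 30, 26 to 35, 20 to 29 and 25 to 34 over 16 alternatives each. Over single members, 3362 values stayed on the same side of the threshold, 80 lost the call and 38 gained one. None changed sign past the threshold. Values that did not pass could change sign. The log2 difference of Adgre1 between dKO and HET hearts on chow at 21 days, for example, ran from -0.59 to 0.03. The causes of the following changes were not tested beyond the construction of each alternative. At 21 days the dKO and HET count of 9 was 5 as deposited, 3 within the larger array set and 5 within the smaller one, a fit chosen after seeing the data, like that without the arrays that stood apart. The count of 4 lower with probucol at 21 days was 0 as deposited, within the larger set and with only the groups compared, 1 after quantile normalization, with a gene's probe sets averaged and with the set as a block, 2 without dKO chow replicate 2, and 7 with array weights. The change from 21 to 31 days (16) was 27 as deposited, 10 among genes of the upper 60% by signal, where 28 members remained, and 6 with the set as a block and within the larger set, and that from 31 to 43 days (12) was 19 with the floor at the 30th percentile. The single call in ageing HET hearts (1) was 11 as deposited, 2 after quantile normalization and 0 with the higher floor, array weights, the larger set, only the groups compared or without the arrays that stood apart. In ageing dKO hearts on probucol 1 member passed as deposited and with only the groups compared, and in HET hearts on probucol 1 passed within the larger set. Leaving out 1 HET probucol heart gave 0 to 1 members between genotypes on probucol at 43 days and 15 to 16 for the difference of the probucol effect. Replicate numbers were not treated as pairs, and 10 of 54 chow arrays correlated best with their own number. A weak link between same-numbered arrays cannot be told from this count. With the replicate block, 9, 26 and 31 members were higher in dKO hearts, 4, 23 and 30 were lower with probucol, and 0 passed in ageing HET hearts. Over all 8252 genes this block gave 211, 555 and 1168 higher in dKO hearts and 90, 671 and 1006 lower with probucol. Where a member was at the floor, as 11 of the 36 were on at least 1 array, its level there is only a bound.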
